A study of Mus musculus with 2 samples.

Results

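The matrix metalloproteinases Mmp2, Mmp3, Mmp8, Mmp9, Mmp12, Mmp14 and Mmp19 and their tissue inhibitors Timp1, Timp2 and Timp3 were followed across the cell classes of mouse lung. These 10 genes were chosen by name from the 32286 features of the count matrices, and all 10 were found. The choice was made with earlier results of these data known. The lungs came from BALB/c mice bearing 4T1 tumours, a mouse mammary carcinoma line that spreads to the lung, and were taken on day 14 after the cells had been placed in the mammary fat pad. 1 single-cell RNA-seq library came from mice given IgG antibody and 1 from mice given S100a4-11 antibody, written S100A4-11 below. Both groups carried the tumour, so neither is a tumour-free lung. The labels give neither the mice's age nor the number of animals behind a library nor the doses, and with 1 library per group no difference between them had a replicate check. The comparison asks which lung cells carried these protease and inhibitor transcripts, and how the levels compared between lungs given the antibody against S100A4 and lungs given IgG.

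Matrix metalloproteinases are zinc proteases that cleave extracellular matrix proteins and many secreted or cell-surface proteins. Most are secreted as inactive proenzymes and are activated by removal of the propeptide, while the membrane-type enzyme MMP14 sits at the cell surface and activates proMMP2 with TIMP2 as an adaptor. TIMPs bind the active site of the enzymes and block them, and TIMP3 is held in the matrix. In the lung, gelatinases and collagenases stored by neutrophils, the macrophage elastase MMP12 and stromal enzymes have long been studied in matrix turnover and in the preparation of tissue for metastasis. Transcript levels say nothing of proenzyme activation or of inhibitor binding.

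After filtering, 13478 IgG cells and 11720 S100A4-11 cells remained, with medians of 3997.5 and 3650.5 UMIs (unique molecular identifiers, each standing for 1 captured transcript) and totals of 77069147 and 58583155 UMIs. Clustering of both libraries together gave 31 clusters, of which 28 were named for 16 cell classes from marker genes that include no member. 2 names are shortened here: pericyte-like cells include smooth muscle cells, and innate lymphoid-like cells include gamma-delta T cells. The names end in "-like" because they rest on transcripts alone. Lung epithelium, endothelium, fibroblasts and resident macrophages were all present, while the protocol text calls the tissue tumour and the labels call it lung. The interstitial macrophage-like class held 511 and 466 cells and also carried dendritic cell markers, at 858 and 842 CPM summed over 8 markers. The same sum was 3315 and 3274 CPM in B cell-like and 2109 and 2035 CPM in T cell-like cells, so it alone does not show dendritic cells. No cluster was named carcinoma-like. 3 clusters stayed unnamed: cluster 17, with pericyte, fibroblast and endothelial genes, held 390 and 183 cells, cluster 19 held 253 and 250, and cluster 25 held 195 IgG cells and 1 S100A4-11 cell. The libraries shared 266 barcodes, 243 of them among kept cells. Levels are UMIs of a gene per 1000000 UMIs of the class (CPM), and ratios are S100A4-11 over IgG. Parentheses hold exact 95% intervals that cover counting error only, whereas cells, animals and library preparation add spread that was not measured. A pair of gene and class was read as a ratio where it had at least 20 UMIs and the class at least 100 cells in each library, which 14 classes had. It was called past the fold at 1.5-fold in either direction with an interval that excluded 1.

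Free RNA in droplets gives stray UMIs to every cell, so the level in B cell-like cells was used as a reference for cells with little of these genes. There, all 10 genes stood below 20 CPM in both libraries, with Timp3 at 18.3 and 10.3 CPM. The median depth of B cell-like cells was 2872.5 and 2817 UMIs. The summed level of 8 neutrophil markers in them was 796 and 312 CPM, that of 8 endothelial markers 303 and 216 CPM, and that of 8 fibroblast markers 44.5 and 20.8 CPM, so transcripts of these other cells stood higher in B cell-like cells of the IgG library.

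In the GENCODE M21 annotation of GRCm38 (mm10), the build of the submitters' processing notes, Mmp12 (chromosome 9, 7344381 to 7369499), Mmp3 (chromosome 9, 7445822 to 7455975) and Mmp8 (chromosome 9, 7558456 to 7568485) are neighbours on the plus strand, with Mmp1b and Mmp10 between them. Mmp2 lies on chromosome 8, 92827291 to 92853420, Mmp9 on chromosome 2, 164940780 to 164955850, Mmp14 on chromosome 14, 54431612 to 54445364 and Mmp19 on chromosome 10, 128790910 to 128800824. Timp1 lies on chromosome X, 20870166 to 20874735, overlapped by Syn1 on the other strand. Timp2 lies on chromosome 11, 118301069 to 118355740, on the minus strand, and overlaps Cep295nl on the same strand. Timp3 lies on chromosome 10, 86300372 to 86349506, overlapped by Syn3 on the other strand. Mmp12 overlaps Mmp1b, and Mmp19 overlaps Gm47093 and Tmem198b, each on the other strand. Whether the counting used strand is not given in the sources used here, so reads of such pairs may not be told apart.

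The 3 neighbours on chromosome 9 were carried by 3 different cell lineages in these lungs, fibroblasts, granulocytes and macrophages, and their promoters are shown for that reason. The runs are RefSeq promoter sequence on GRCm38.p6, plus strand, 5′ to 3′, ending just before the transcript start of the RefSeq table, or, for Mmp12, before the earlier GENCODE start. Capitals mark the AP-1 motif TGAGTCA or its reverse complement TGACTCA, which JUN and FOS family dimers can bind.
Mmp12, chr9:7344147-7344380: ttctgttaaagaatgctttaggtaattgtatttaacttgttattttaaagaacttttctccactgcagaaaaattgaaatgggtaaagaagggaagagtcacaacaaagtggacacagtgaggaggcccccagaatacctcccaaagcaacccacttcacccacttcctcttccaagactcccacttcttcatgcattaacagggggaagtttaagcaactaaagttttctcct
Mmp3, chr9:7445572-7445821: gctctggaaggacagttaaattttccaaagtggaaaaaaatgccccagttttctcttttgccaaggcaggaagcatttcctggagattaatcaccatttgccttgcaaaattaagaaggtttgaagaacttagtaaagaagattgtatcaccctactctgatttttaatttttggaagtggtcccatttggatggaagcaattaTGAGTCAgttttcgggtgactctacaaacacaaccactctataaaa
Mmp8, chr9:7558179-7558428: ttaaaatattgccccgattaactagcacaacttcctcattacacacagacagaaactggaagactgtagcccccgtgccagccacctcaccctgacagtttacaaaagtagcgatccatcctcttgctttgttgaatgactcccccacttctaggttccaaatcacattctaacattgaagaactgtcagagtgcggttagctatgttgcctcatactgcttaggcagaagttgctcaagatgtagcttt
The motif was found once in the Mmp3 run, beginning 46 bases before the start, and not in the runs of Mmp12 and Mmp8. In the 250 bases before the start, 1466 of 32851 promoters in the RefSeq table (4.46%) held it on either strand, and none of the other 6 members found in the table did. The table held 7 of the 10 members. A match is a description of the sequence, and no binding was measured.

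**Figure D1:**
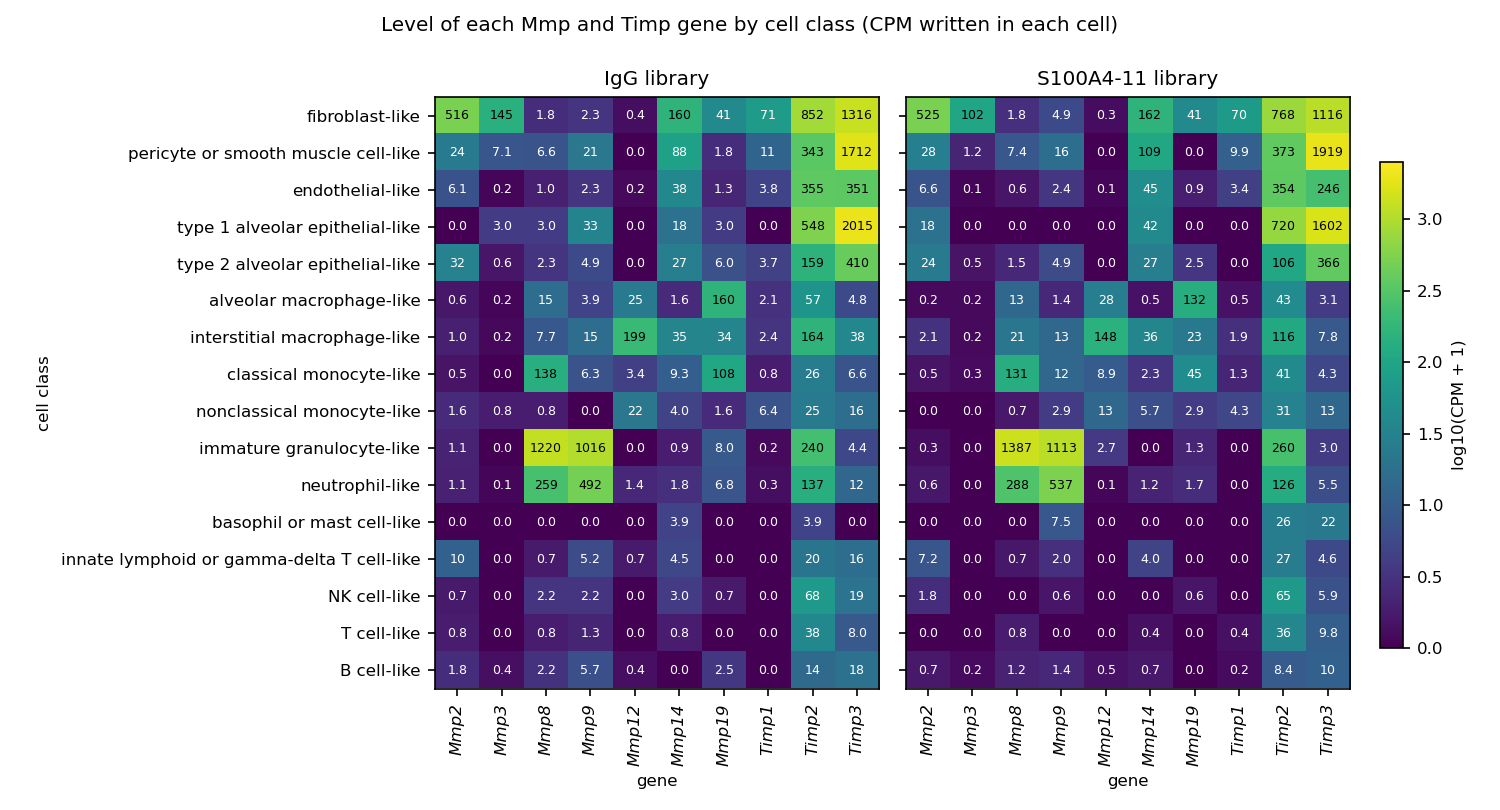
Level of each gene (columns) in each of 16 cell classes (rows) in the IgG library (left) and the S100A4-11 library (right). Colour is log10(CPM + 1) and the CPM is written in each cell. Mmp2, Mmp3 and Timp1 stand out in fibroblast-like cells, Mmp8 and Mmp9 in granulocytes, and Mmp12 and Mmp19 in macrophages, in both libraries.

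Fibroblast-like cells (1143 and 777 cells) had the highest level of Mmp2, Mmp3, Mmp14, Timp1 and Timp2 among the named classes in both libraries. For Timp2, type 1 alveolar epithelial-like cells came close in the S100A4-11 library, and that order was not settled. Mmp2, gelatinase A, which cleaves denatured collagen and basement membrane collagen, stood at 516 CPM (497 to 535) for IgG and 525 CPM (500.3 to 550.2) for S100A4-11. These cells held 74.5% and 78.6% of all its UMIs in the IgG and S100A4-11 libraries. The ratio was 1.02 (0.958 to 1.08), so the levels could not be told apart at this depth. Of the other named classes the nearest were type 2 alveolar epithelial-like cells at 31.7 and 24.2 CPM and pericyte-like cells at 23.8 and 28.4 CPM, which changed places between the libraries, and B cell-like cells stood at 1.79 and 0.718 CPM. A UMI of Mmp2 was found in 57.7% (54.8 to 60.6) and 52.3% (48.7 to 55.8) of fibroblast-like cells (median depths 3967 and 3132 UMIs) and in 0.577% and 0.224% of B cell-like cells. With every cell thinned to 500 UMIs the fibroblast shares were 16.3% and 16.5%, so the gap between the libraries was not seen at equal depth.

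Mmp3, stromelysin 1, which degrades matrix proteoglycans and activates other proMMPs, was held almost wholly by fibroblast-like cells, with 95.3% and 97.7% of its UMIs. Its level there was 145 CPM (135 to 155) for IgG and 102 CPM (91.6 to 114) for S100A4-11, a ratio of 0.705 (0.619 to 0.801) that did not reach the 1.5-fold call. Few cells carried it: a UMI was found in 7.7% (6.22 to 9.4) and 5.79% (4.26 to 7.67) of the fibroblast-like cells, and the 5 cells with most UMIs held 32.3% and 44.8% of them. Without those 5 cells in each library the ratio was 0.575, and with each library clustered alone it was 0.439, both past the fold. Inside the class the clusters did not share 1 direction. In cluster 24, led by Serpinf1, Ccl11 and Dcn, Mmp3 stood at 361 and 173 CPM, a ratio of 0.48 (0.389 to 0.588). In cluster 21, led by Cyp2e1, Agt and Hhip, it stood at 100.4 and 18.7 CPM, a ratio of 0.186 (0.0857 to 0.36). In cluster 10, led by Slc38a5, Mfap4 and Tcf21, it stood at 88.9 and 114 CPM, a ratio of 1.28 (1.06 to 1.55). Cluster 22 had 4 and 3 UMIs and gives no ratio. So the class ratio averaged clusters that lay on either side of 1. The cluster ratios were not read without the cells with most UMIs, so the weight of few cells in them is not known.

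Mmp14, the membrane-type enzyme that activates proMMP2, was spread more widely over the stroma. Fibroblast-like cells had 159.5 CPM (149 to 170.3) for IgG and 162 CPM (149 to 177) for S100A4-11, pericyte-like cells 87.6 and 109 CPM and endothelial-like cells 37.7 and 45.1 CPM. Interstitial macrophage-like cells, at 34.6 and 35.8 CPM, were close to endothelial-like cells, and type 1 alveolar epithelial-like cells had 17.97 and 41.996 CPM from 6 and 7 UMIs. The ratio was 1.02 (0.913 to 1.13) in fibroblast-like, 1.24 (0.941 to 1.63) in pericyte-like and 1.2 (1.08 to 1.33) in endothelial-like cells, none past the fold. Mmp14 was also found together with Mmp2 in single fibroblast-like cells. Of the fibroblast-like cells with a UMI of Mmp2, 54.7% and 48.8% in the IgG and S100A4-11 libraries also had one of Mmp14, against 13.2% and 14.3% of those without Mmp2; deeper cells show more genes of any kind, and this was not corrected for depth.

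Timp1, an inhibitor that is induced in wounded and inflamed tissue, was sparse, with 606 and 330 UMIs over all cells of the IgG and S100A4-11 libraries. Fibroblast-like cells held 66.997% and 70.000% of them, at 71.5 CPM (64.7 to 78.8) for IgG and 70.5 CPM (61.7 to 80.2) for S100A4-11, and the ratio was 0.986 (0.835 to 1.16). Within the class the level was highest in cluster 24, at 203 and 198 CPM, followed by cluster 21 at 40.4 and 35.5 CPM and cluster 10 at 34.2 and 42.9 CPM, whose counting intervals overlap. Cluster 24 was also the fibroblast-like cluster with most Mmp2 (1023 and 1118 CPM), Mmp14 (316 and 364 CPM), Timp2 (1607 and 1443 CPM) and Timp3 (2192 and 1618 CPM). With each library clustered alone, which gives each library its own fibroblast-like class, the ratios were 0.73 for Mmp2, 0.807 for Mmp14, 0.764 for Timp2 and, past the fold, 0.638 for Timp1. Cluster 24 made up 16.01% of fibroblast-like cells for IgG and 12.2% for S100A4-11.

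**Figure D2:**
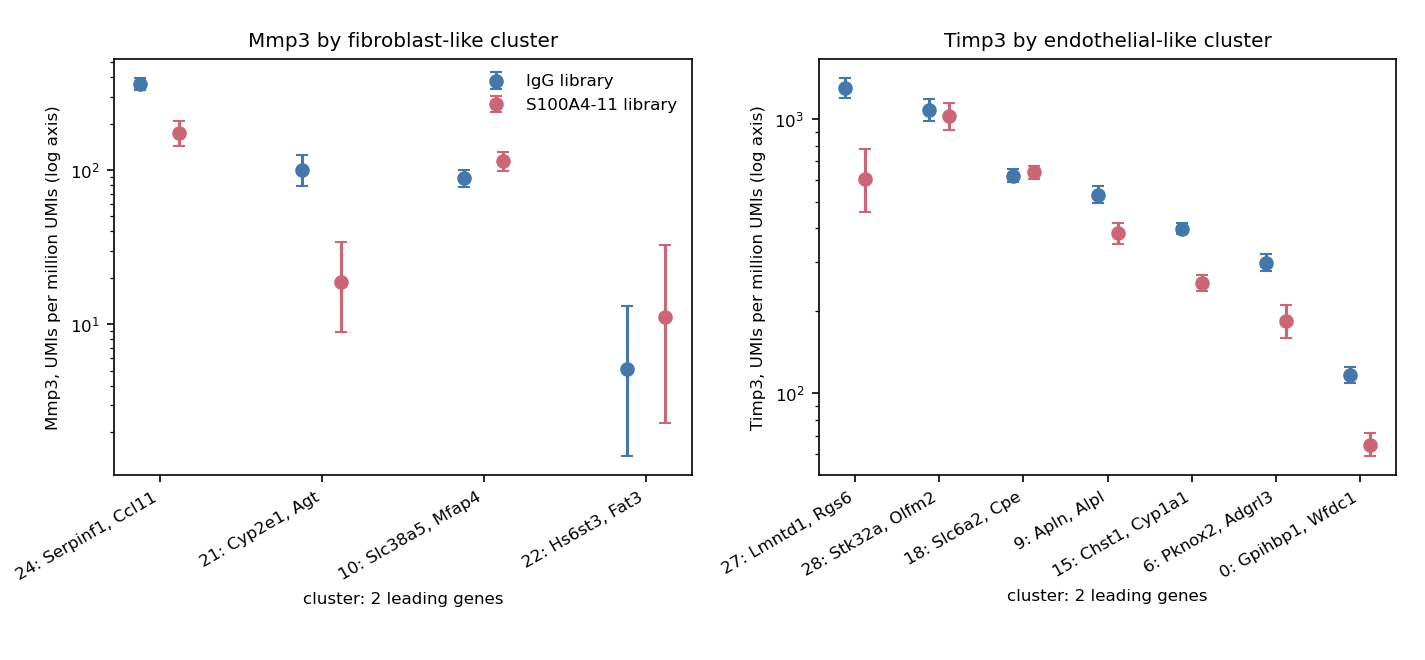
Mmp3 in the 4 fibroblast-like clusters (left) and Timp3 in the 7 endothelial-like clusters (right), in CPM, UMIs per 1000000 UMIs of the cluster on log axes; points are the IgG (blue) and S100A4-11 (red) libraries and bars are exact 95% counting intervals. Mmp3 stood at 361 and 173 CPM in cluster 24 and at 88.9 and 114 CPM in cluster 10, and Timp3 was nearly level in clusters 18 and 28.

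Mmp8 and Mmp9 were granulocyte genes in both libraries. Mmp8, neutrophil collagenase, which cleaves fibrillar collagen and is stored in granules, stood at 1220.0 CPM (1188 to 1253) for IgG and 1387 CPM (1345 to 1429.9) for S100A4-11 in immature granulocyte-like cells (497 and 372 cells, marked by granule genes such as Camp and Ngp). Neutrophil-like cells (2319 and 2039 cells) had 259 and 288 CPM and classical monocyte-like cells 138 and 131 CPM. The order of these 3 classes was the same in both libraries and their counting intervals did not overlap. In the IgG and S100A4-11 libraries immature granulocyte-like cells held 63.7% and 58.6% of its UMIs and neutrophil-like cells 27.6% and 31.6%. The ratio was 1.14 (1.09 to 1.18) in immature granulocyte-like, 1.11 (1.05 to 1.18) in neutrophil-like and 0.951 (0.84 to 1.08) in classical monocyte-like cells, where 8 neutrophil markers summed to 3502 and 3503 CPM. None reached 1.5-fold, and the intervals of both granulocyte classes excluded 1 by counting error alone.

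Mmp9, gelatinase B, had 1016 CPM (987 to 1046) for IgG and 1113 CPM (1076 to 1152) for S100A4-11 in immature granulocyte-like cells and 492 CPM (478 to 507) for IgG and 537 CPM (521 to 554) for S100A4-11 in neutrophil-like cells. The more numerous neutrophil-like cells held 47.9% and 54.1% of its UMIs, beside 48.3% and 43.2% in immature granulocyte-like cells. The ratios were 1.1 (1.05 to 1.15) and 1.09 (1.05 to 1.14). A UMI of Mmp9 was found in 96.4% and 95.7% of immature granulocyte-like cells (median depths 8412 and 7262 UMIs) and 70.9% and 69.1% of neutrophil-like cells (median depths 3705 and 3536), against 0.924% and 0.447% of B cell-like cells. At 500 UMIs per cell the shares were 39.4% and 41.9% and 20.1% and 21.6%.

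Both genes were often found in the same neutrophil-like cell: 85.2% and 84.05% of IgG and S100A4-11 neutrophil-like cells with Mmp8 also had Mmp9, against 63.9% and 60.9% of those without Mmp8, with depth not held equal. Within neutrophil-like cells, cluster 1, led by Cxcl3, Stfa2l1 and Cstdc4, had 332 and 383 CPM of Mmp8, while cluster 3, led by Ccrl2, Marcksl1 and Il1rn, had 72.8 and 84.5 CPM. Mmp9 was less steep between them, at 554 and 619 CPM in cluster 1 and 336 and 344 CPM in cluster 3. The small cluster 26 (110 and 84 cells), led by Gm26756 and Sgms2, differed from the class ratio: Mmp9 stood at 349.7 and 679 CPM, a ratio of 1.94 (1.42 to 2.67), and Mmp8 at 98.5 and 155 CPM, a ratio of 1.57 (0.825 to 3.01).

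Mmp12, macrophage elastase, was led by interstitial macrophage-like cells, with 199 CPM (187 to 212) for IgG and 148 CPM (136 to 159.6) for S100A4-11 and 79.7% and 77.2% of its UMIs. The ratio was 0.74 (0.669 to 0.819), short of the call. The transcript was concentrated: a UMI was found in 13.5% (10.7 to 16.8) and 12.7% (9.78 to 16.03) of these cells (median depths 9352 and 8594 UMIs), and 5 cells held 37.1% and 45.4% of the UMIs. Without those cells the ratio was 0.642, past the fold, whereas it was 0.947 with at least 500 genes per cell and 0.97 at Leiden resolution 2, which redraw the borders of the class. Alveolar macrophage-like cells followed at 24.6 and 27.7 CPM, a ratio of 1.12 (0.875 to 1.44).

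Mmp19, a metalloproteinase of basement membrane components that is made by myeloid and stromal cells, was the only member past the fold in a class where it stood at 20% or more of its top level. Alveolar macrophage-like cells (723 and 495 cells) came first, with 160.4 CPM (151 to 171) for IgG and 132 CPM (121 to 143) for S100A4-11, a ratio of 0.821 (0.739 to 0.912). Classical monocyte-like cells (362 and 432 cells) had 108 CPM (97.9 to 119) for IgG and 44.5 CPM (38.2 to 51.6) for S100A4-11, so the level in the S100A4-11 library was 2.43-fold (2.03 to 2.92) lower. A UMI was found in 39.5% (34.4 to 44.7) and 22.7% (18.8 to 26.9) of these cells, whose median depths were 10263.5 and 8675.5 UMIs, and in 0.693% of IgG B cell-like cells. In the S100A4-11 library 0 of 1341 B cell-like cells had one, which allows a share of up to 0.224%. Thinned to 500 UMIs the shares were 5.25% and 3.47%. No interval was computed for them, so the gap in shares was not settled at equal depth. The call held in all 14 alternatives that gave a value, with ratios from 0.388 to 0.505. Several calls at low levels, listed in the closing section, also held in all of theirs. The pattern was already known from earlier results of these data when the members were chosen. Alveolar macrophage markers were level in classical monocyte-like cells, at 29.4 and 28.1 CPM summed over 9 markers, while fibroblast markers were 20.4 and 10.1 CPM and type 2 alveolar epithelial markers 153 and 89.5 CPM. The part of these in the Mmp19 value was not tested.

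Fibroblast-like cells, the third source of Mmp19, had 40.8 and 41.2 CPM, a ratio of 1.01 (0.81 to 1.25). By cluster the ratio was 1.68 (1.06 to 2.66) in cluster 24 (32.5 and 54.8 CPM), 1.99 (0.904 to 4.25) in cluster 22 and 0.778 (0.592 to 1.02) in cluster 10 (60.8 and 47.3 CPM). Only the interval of cluster 24 excluded 1, so opposite directions between the clusters were not settled. Interstitial macrophage-like cells had 34.2 and 22.9 CPM, a ratio of 0.67 (0.517 to 0.864) that was not past the fold and turned to 1.12 with at least 500 genes per cell and 1.08 at Leiden resolution 2. Low levels were also lower in granulocytes. Neutrophil-like cells had 6.82 and 1.67 CPM and immature granulocyte-like cells 7.97 and 1.34 CPM, ratios of 0.246 (0.124 to 0.451) and 0.168 (0.0434 to 0.468) from 63 and 13 UMIs and 36 and 4 UMIs. In neutrophil-like cells the difference lay in cluster 1, with 8.63 and 1.52 CPM, while cluster 3 had 2.47 and 2.13 CPM. B cell-like cells stood at 2.51 CPM in the IgG library and at 0 UMIs, which allows up to 0.718 CPM, in the S100A4-11 library. The part of stray RNA in the granulocyte values was not tested. Alveolar macrophage markers in neutrophil-like cells were 39.5 and 35.4 CPM, and 14.6 and 20.4 CPM in immature granulocyte-like cells.

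**Figure D3:**
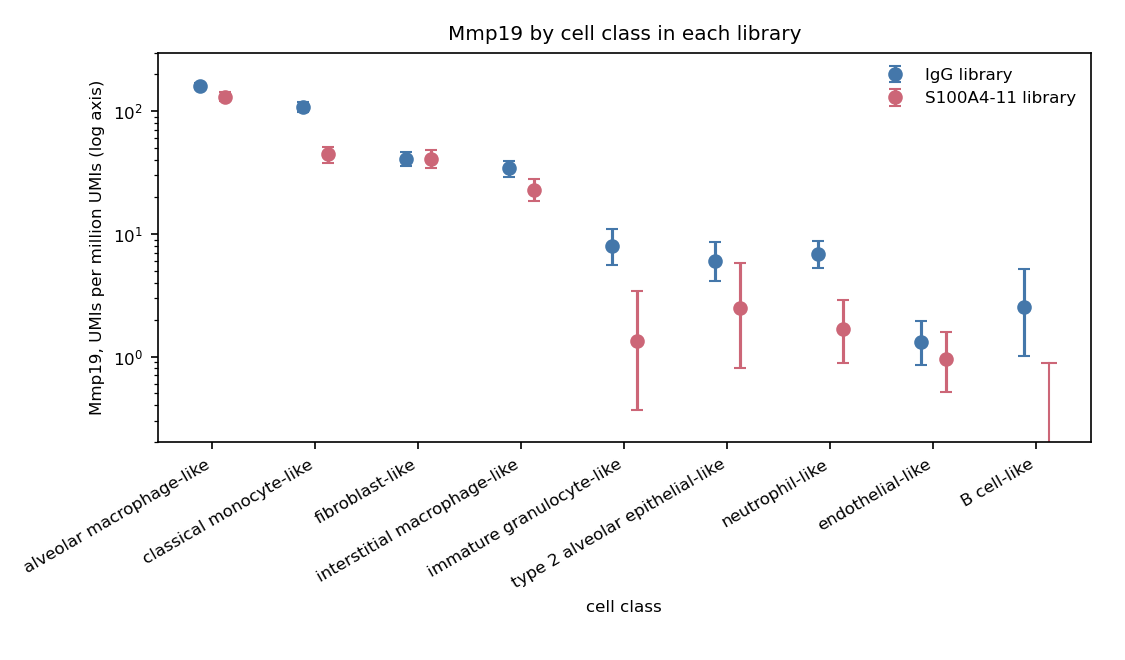
Mmp19 in the 8 classes with at least 20 UMIs and in B cell-like cells, in CPM, UMIs per 1000000 UMIs of the class on a log axis, in the IgG (blue) and S100A4-11 (red) libraries; bars are exact 95% counting intervals and the bar without a point marks a count of 0. The libraries stand clearly apart in classical monocyte-like cells, at 108 and 44.5 CPM, and meet in fibroblast-like cells, at 40.8 and 41.2 CPM.

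Timp2, which inhibits MMPs and also couples MMP14 to proMMP2, was carried by many classes. Fibroblast-like cells had 852 CPM (828 to 876) for IgG and 768 CPM (739 to 799) for S100A4-11, endothelial-like cells 355 and 354 CPM, pericyte-like cells 343 and 373 CPM and immature granulocyte-like cells 239.5 and 259.9 CPM. Type 1 alveolar epithelial-like cells, 103 and 39 in number and too few for a ratio, had 548 and 719.9 CPM from 183 and 120 UMIs. Their order with fibroblast-like cells was therefore not settled in the S100A4-11 library. Endothelial-like cells held the largest part, 33.7% and 41.96% of all Timp2 UMIs. The ratio was 0.902 (0.859 to 0.947) in fibroblast-like and 0.997 (0.961 to 1.03) in endothelial-like cells. Immature granulocytes and neutrophils also carried the transcript, the latter at 137 and 126 CPM, against 13.996 and 8.38 CPM in B cell-like cells.

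The level of Timp2 in type 2 alveolar epithelial-like cells (396 and 195 cells) was 159 CPM (148 to 170.0) for IgG and 106 CPM (91.9 to 121) for S100A4-11, a ratio of 0.665 (0.569 to 0.774) that only just passed the fold in the lower direction. The call was kept in 6 of 14 alternatives, and the ratio ran from 0.527 to 0.768. In the same cells the 8 fibroblast markers summed to 1215 and 672 CPM and the 8 endothelial markers to 1240.0 and 1057 CPM. The largest difference was in 6 airway epithelial markers, at 41532 and 1818 CPM. Pericyte markers were 349 and 101 CPM, and classical monocyte markers 1212 and 517 CPM. The part of these in the Timp2 value was not tested. Interstitial macrophage-like cells had 164 and 116 CPM, a ratio of 0.709 (0.633 to 0.793) that was not past the fold.

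Timp3, the inhibitor bound to the matrix, was led by type 1 alveolar epithelial-like cells at 2015 and 1602 CPM, pericyte-like cells at 1712 and 1919 CPM and fibroblast-like cells at 1316 and 1116 CPM. Type 1 cells and pericytes changed places between the libraries, so their order was not settled. Fibroblast-like and endothelial-like cells held most of its UMIs, 31.9% and 32.03% and 28.6% and 31.8%. The ratio was 1.12 (1.05 to 1.19) in pericyte-like and 0.848 (0.815 to 0.883) in fibroblast-like cells. The pericyte-like clusters lay on either side of 1, with 2078 and 2426 CPM and a ratio of 1.17 (1.09 to 1.25) in cluster 20, led by Actc1 and Cnn1, and 747 and 556 CPM and a ratio of 0.744 (0.60 to 0.918) in cluster 23, led by Adcy8 and Trpc6. In endothelial-like cells (3563 and 2927 cells) Timp3 stood at 351 CPM (342 to 359) for IgG and 246 CPM (238 to 254) for S100A4-11, a ratio of 0.70 (0.673 to 0.729) that missed the call; it passed in 5 of 15 alternatives, with ratios from 0.535 to 0.734.

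The endothelial value was an average over unlike clusters. In cluster 0, led by Gpihbp1 and Wfdc1, Timp3 stood at 117 and 64.996 CPM, a ratio of 0.556 (0.494 to 0.625). In cluster 15, led by Chst1 and Cyp1a1, it stood at 398 and 252 CPM, a ratio of 0.633 (0.583 to 0.687). Clusters 6, 9 and 27 lay on the same side, with ratios of 0.611 (0.521 to 0.714), 0.722 (0.644 to 0.809) and 0.465 (0.349 to 0.608). Clusters 18 and 28, both with the large-vessel endothelial gene Vwf among their leading genes, stood level at 622 and 640.2 CPM and 1081 and 1023 CPM, with ratios of 1.03 (0.953 to 1.11) and 0.946 (0.816 to 1.09). The difference between the clusters had no replicate check. Timp2 and Mmp14 did not share the lower level in clusters 0 and 15. The ratio of Timp2 was 1.02 (0.956 to 1.09) in cluster 0 and 1.03 (0.966 to 1.1) in cluster 15, and that of Mmp14 1.1 (0.944 to 1.27) and 1.48 (1.17 to 1.87). In clusters 6, 9 and 27 Timp2 was at 1.16 (0.99 to 1.35), 0.909 (0.832 to 0.993) and 0.725 (0.459 to 1.1). Mmp14 was at 1.19 (0.776 to 1.79) and 0.958 (0.303 to 2.89) in clusters 6 and 9, and had 3 and 0 UMIs in cluster 27.

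The unnamed cluster 17, deep cells with Fam162b, Higd1b and Vtn in the lead, also carried several members. Timp3 stood there at 457 and 508 CPM, Timp2 at 434 and 436 CPM, Mmp2 at 95.9 and 102 CPM and Mmp14 at 68.6 and 71.2 CPM. It held 12.3% and 11.1% of all Timp3 UMIs and 16.4% and 10.3% of all Mmp14 UMIs in the IgG and S100A4-11 libraries. Its mixed markers give no class, so the cluster enters no ratio by class.

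Of the 140 pairs of member and class, 73 had enough UMIs for a ratio. Of these, 4 were past the fold in the higher direction and 13 in the lower direction, together 23.3%, against 6.1% of the 147107 pairs of all genes measured in the same way. The members' count was above that background, and 16 of the 17 calls lay where the gene had under 20% of its top level among the 14 classes. The members were chosen with earlier results of these data known, so their higher share is a description only. Among the 22 pairs at or above 20%, only Mmp19 in classical monocyte-like cells was called. The other ratios of those 22 pairs ran from 0.705 for Mmp3 in fibroblast-like cells to 1.24 for Mmp14 in pericyte-like cells. The picture depends on the 20% line. Nearest below it was Mmp19 in interstitial macrophage-like cells (19.5%, ratio 0.67). Next came Timp2 in type 2 alveolar epithelial-like (17.5%, ratio 0.665, called) and interstitial macrophage-like cells (17.3%, ratio 0.709). Timp3 in endothelial-like cells (17.1%) was at 0.70 and Mmp14 in type 2 alveolar epithelial-like cells (17.0%) at 0.99.

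**Figure D4:**
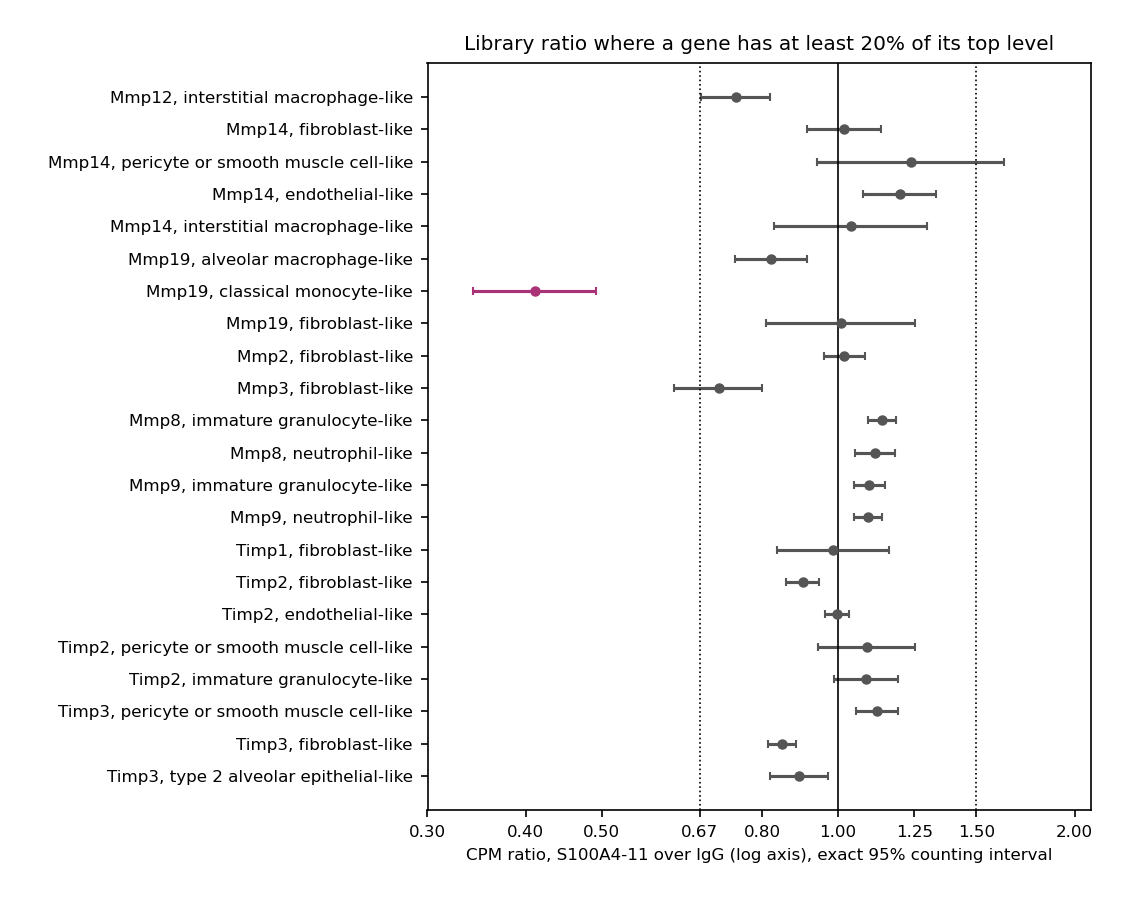
Ratio of S100A4-11 over IgG for the 22 pairs of gene and class in which the gene had at least 20% of its top level, on a log axis; bars are exact 95% counting intervals and dotted lines mark 1.5-fold in each direction. Mmp19 in classical monocyte-like cells (purple) lies at 0.412, apart from the other pairs, which lie between 0.705 and 1.24.

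Class by class, the members called were as follows, each beside the share of all measured genes called in that class. In classical monocyte-like cells 3 of 7 measured members were higher and 2 lower (background 4.27%), and in interstitial macrophage-like cells 1 of 8 was higher and 1 lower (5.81%). In B cell-like cells 3 of 3 were lower (5.8%), in NK cell-like cells 1 of 2 (5.15%), in innate lymphoid-like cells 1 of 3 (7.71%) and in T cell-like cells 0 of 2 (4.25%). In neutrophil-like cells 2 of 6 were lower (5.59%), in immature granulocyte-like cells 1 of 5 (6.06%), in alveolar macrophage-like cells 1 of 6 (4.51%) and in type 2 alveolar epithelial-like cells 1 of 6 (10.3%). None was called among 8 in endothelial-like (5.4%), 8 in fibroblast-like (6.76%), 6 in pericyte-like (7.07%) and 3 in nonclassical monocyte-like cells (5.73%). The stromal classes that carry most of the inhibitors thus had no called member. The 5 lower calls in lymphocyte classes stood at 18.7 CPM or less.

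Many calls at low levels stood beside a difference in markers of other cells. Timp3 in interstitial macrophage-like cells was 37.7 and 7.78 CPM, a 4.85-fold (3.34 to 7.25) lower value from 190 and 33 UMIs, of which 5 cells held 69.5% and 66.7%. In those cells the 8 endothelial markers summed to 304 and 168 CPM, the 7 type 2 alveolar epithelial markers to 243 and 96.2 CPM and the 8 fibroblast markers to 41.9 and 29.5 CPM. Timp3 in neutrophil-like cells was 12.2 and 5.54 CPM (ratio 0.453, 0.311 to 0.649), beside endothelial markers at 169 and 116 CPM and fibroblast markers at 43.7 and 19.96 CPM. Pericyte markers, of a main source of Timp3, were not lower there, at 61.7 and 67.1 CPM. They were 18.7 and 19.6 CPM in B cell-like and 46.7 and 38.4 CPM in interstitial macrophage-like cells. In NK cell-like cells they were 32.2 and 17.2 CPM, and in innate lymphoid-like cells 20.2 and 9.22 CPM. Timp3 was also lower in B cell-like (ratio 0.563, 0.366 to 0.861), NK cell-like (ratio 0.317, 0.136 to 0.683) and innate lymphoid-like cells (ratio 0.293, 0.105 to 0.715), at levels up to 18.7 CPM. Timp2 in B cell-like cells (ratio 0.599, 0.368 to 0.97) and Mmp9 in B cell-like and alveolar macrophage-like cells (ratios 0.25, 0.0802 to 0.673, and 0.367, 0.123 to 0.922) were of the same kind. The neutrophil markers in alveolar macrophage-like cells summed to 698 and 425 CPM. The part of stray RNA or of mixed droplets in these values was not tested. With doublets kept, Mmp9 in B cell-like cells was 1.31 (0.279 to 8.08), and the call held in 9 of 13 alternatives.

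The 4 higher calls were likewise at low levels. Mmp8 in interstitial macrophage-like cells was 7.75 and 20.7 CPM (ratio 2.68, 1.82 to 4.01), with 39 and 88 UMIs, beside neutrophil markers at 1742 and 1391 CPM and immature granulocyte markers at 53.02 and 76.4 CPM. In classical monocyte-like cells Mmp9 was 6.35 and 12.1 CPM (ratio 1.91, 1.15 to 3.26), Timp2 26.2 and 40.7 CPM (ratio 1.56, 1.2 to 2.02) and Mmp12 3.44 and 8.85 CPM (ratio 2.57, 1.33 to 5.3). All Mmp12 UMIs there lay in 5 cells of each library. These 3 ratios crossed 1 when the class was drawn otherwise. At Leiden resolution 0.5 they were 0.895 (0.649 to 1.23), 0.766 (0.694 to 0.846) and 0.691 (0.626 to 0.762), and the first interval includes 1. The calls held in 8 of 14, 6 of 14 and 8 of 13 alternatives that gave a value. Mmp14 in classical monocyte-like cells was 9.26 and 2.28 CPM (ratio 0.246, 0.104 to 0.522) from 35 and 9 UMIs. Its call held in 11 of 14 alternatives, and with each library clustered alone the ratio was 1.31 (0.816 to 2.13).

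Over all kept cells, as bulk RNA would be read, the granulocyte genes Mmp8 and Mmp9 had ratios just above 1. Every other member, whether carried by stroma or by macrophages, had a ratio below 1. The ratio was 0.522 (0.459 to 0.592) for Mmp3 (11.2 and 5.85 CPM) and 0.641 (0.627 to 0.655) for Timp3 (304 and 195 CPM), both past the fold, which made 2 of 10 members called against 10.6% of all genes. It was 0.732 (0.694 to 0.771) for Mmp2, 0.716 (0.625 to 0.821) for Timp1, 0.817 (0.799 to 0.836) for Timp2, 0.867 (0.816 to 0.922) for Mmp14, 0.671 (0.622 to 0.723) for Mmp19 and 0.847 (0.774 to 0.926) for Mmp12. Mmp8 and Mmp9 were at 1.08 (1.04 to 1.11) and 1.07 (1.04 to 1.1). Fibroblast-like cells made up 7.37% of UMIs for IgG and 5.59% for S100A4-11, and B cell-like cells 3.62% and 7.13%. With the shares of the classes held at their mean over both libraries, the ratio was 1.01 for Mmp2, 1.07 for Mmp14, 0.903 for Timp1, 0.954 for Timp2 and 0.848 for Timp3. It was 0.687 for Mmp3, 0.705 for Mmp19 and 0.787 for Mmp12. Shares of captured cells depend on dissociation as well as on the tissue, and the libraries cannot tell them apart.

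**Figure D5:**
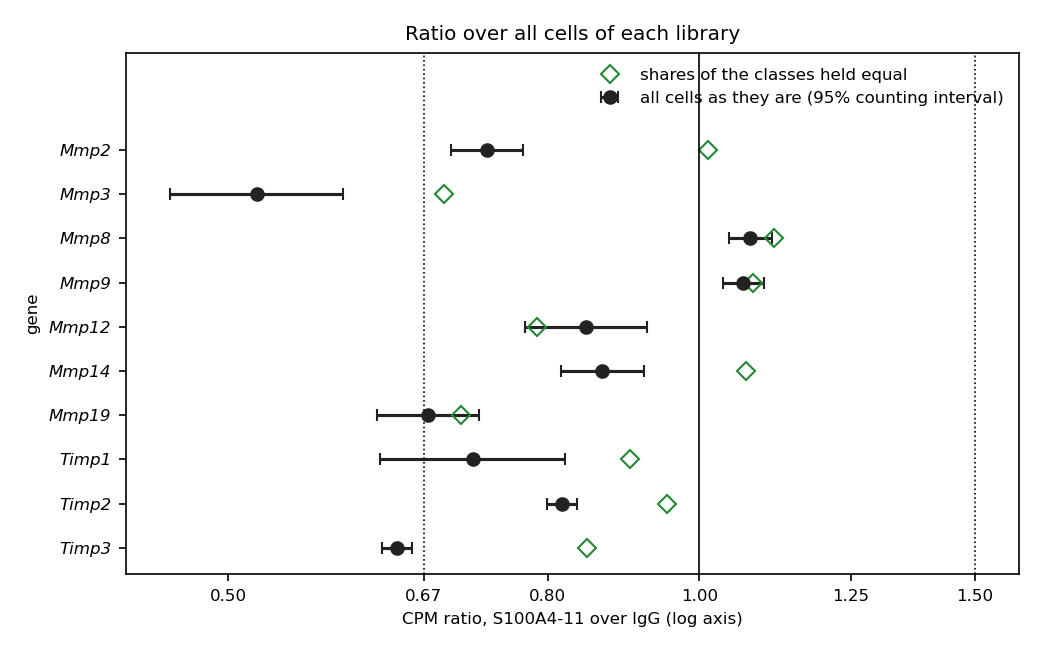
Ratio of S100A4-11 over IgG of each gene over all kept cells (black, with exact 95% counting intervals) and with the UMI shares of the classes held at their mean over both libraries (green diamonds), on a log axis; dotted lines mark 1.5-fold. Mmp2 goes from 0.732 to 1.01 and Mmp14 from 0.867 to 1.07, while Mmp19 goes from 0.671 to 0.705.

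The genes most like each member over the 16 named classes were sought among 7753 genes that reached 50 CPM in 1 class, by Pearson's r of log2(CPM + 1) with both libraries pooled. The classes share library and depth and are few, so r is a description. For Mmp2 they were Ppp4r4 (r = 0.99), Fgf2 (r = 0.97) and Boc (r = 0.97), and for Mmp3 Ccl11 (r = 0.95), Has1 (r = 0.94) and Cpxm1 (r = 0.94), where Ccl11 is a fibroblast chemokine and Has1 makes hyaluronan. Mmp8 was nearest to Cd177 (r = 0.94), Rab24 (r = 0.94) and Wfdc21 (r = 0.94), and Mmp9 to Cstdc5 (r = 0.98), S100a9 (r = 0.98) and Retnlg (r = 0.98), among them the neutrophil surface gene Cd177 and the neutrophil calcium-binding gene S100a9. Mmp12 was nearest to Trem2 (r = 0.92), Fcgr1 (r = 0.91) and Batf3 (r = 0.90), the first a lipid receptor and the second an IgG receptor of macrophages. For Mmp19 they were Fcor (r = 0.91), Cfb (r = 0.90) and Naaa (r = 0.88), and for Mmp14 Selenom (r = 0.97), Vcam1 (r = 0.96) and Adgrg6 (r = 0.94). Timp1 was nearest to Fhod1 (r = 0.93), Cntn4 (r = 0.92) and Tmem45a (r = 0.91), Timp2 to Schip1 (r = 0.89), Pam (r = 0.89) and Sned1 (r = 0.87) and Timp3 to Sparc (r = 0.99), Ccn2 (r = 0.99) and Lamb2 (r = 0.99), of which Sparc is a matrix protein and Ccn2 a matricellular growth factor. Among the members themselves, Mmp14 and Timp3 had r = 0.87, Mmp2 and Mmp3 r = 0.87, and Mmp8 and Mmp9 r = 0.86.

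Of 18 other MMP and TIMP family genes, 17 were in the matrices and 13 were measured over all cells, where 2 were higher and 2 lower, against 10.6% of all genes called in either direction, a background that holds for the lists named next as well. Reck, a membrane-anchored MMP inhibitor, stood at 19.96 and 13.04 CPM (ratio 0.653, 0.598 to 0.713) and Mmp23 at 8.1 and 4.64 CPM (ratio 0.573, 0.495 to 0.662). Mmp10, stromelysin 2, and Mmp13, collagenase 3, were the higher ones at very low levels, Mmp10 with 1 UMI in the IgG and 20 in the S100A4-11 library (ratio 26.3, 4.21 to 1091) and Mmp13 with 54 and 68 (ratio 1.66, 1.14 to 2.41). Reck, Mmp23 and Mmp13 were chosen after their values were seen. Over all cells the 16 matrix substrates had 0 higher and 7 lower, with a median log2 ratio of -0.56 against -0.05 for all genes, and Col1a2, a fibrillar collagen chain, stood at 136 and 82.8 CPM (ratio 0.611, 0.59 to 0.632). Of 14 ADAM and ADAMTS proteases 6 were lower there, with a median of -0.41, among them Adamts9 at 86.5 and 41.99 CPM (ratio 0.485, 0.463 to 0.508) and Adamts2, a procollagen peptidase, at 27.6 and 16.1 CPM (ratio 0.582, 0.539 to 0.629). The shares of the classes were not held equal for these lists, so the part of the stromal shares given above was not tested.

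In classical monocyte-like cells, where Mmp19 was lower, 2 of 6 measured matrix substrates were lower and none higher, with a median log2 ratio of -0.62 against -0.02 for all genes. Vcan, the proteoglycan versican, stood at 321 and 155 CPM (ratio 0.484, 0.439 to 0.534), and is also one of the markers that named the class. The share of all genes called in the class was 4.27%. Of 15 inducers and transcription factors 1 was lower, a share near that background, namely Il1a, the cytokine interleukin 1 alpha, at 105 and 49.1 CPM (ratio 0.467, 0.392 to 0.556). Of 11 activation, binding and clearance genes 1 was higher, Plau, the urokinase that generates plasmin, at 10.1 and 18.97 CPM (ratio 1.89, 1.26 to 2.87), and 2 were lower. In interstitial macrophage-like cells Il1a had the other direction, at 81.6 and 145 CPM (ratio 1.77, 1.56 to 2.01), and Lcn2, which binds MMP9 and is also a marker of immature granulocytes, stood at 20.3 and 38.7 CPM (ratio 1.91, 1.48 to 2.47). Adam15 stood there at 72.7 and 45.7 CPM (ratio 0.629, 0.526 to 0.751).

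In immature granulocyte-like cells Elane, neutrophil elastase, stood at 32.5 and 6.35 CPM (ratio 0.195, 0.114 to 0.316) and Fos, an AP-1 subunit, at 602 and 916 CPM (ratio 1.52, 1.44 to 1.61), while Mmp8 and Mmp9 stayed within 1.5-fold. In type 2 alveolar epithelial-like cells, where Timp2 was lower, 10 of 15 measured matrix substrates were lower and 1 higher, where 10.3% of all genes were called in either direction, with a median log2 ratio of -0.79 against -0.04 for all genes. Fn1, fibronectin, stood at 295 and 157 CPM (ratio 0.534, 0.472 to 0.603) and Col3a1, a fibrillar collagen chain, at 77.1 and 37.97 CPM (ratio 0.492, 0.381 to 0.63). Airway epithelial markers (41532 and 1818 CPM) and fibroblast markers (1215 and 672 CPM) in these cells moved the same way, and their part in these values was not tested. In alveolar macrophage-like cells Lcn2 stood at 12.9 and 1.89 CPM (ratio 0.147, 0.0613 to 0.304) and Thbs1, thrombospondin 1, at 13.4 and 5.21 CPM (ratio 0.389, 0.232 to 0.629).

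The other listed genes past the fold in classes with a called member were mostly lower, and many stood at few UMIs. In B cell-like cells Il1b, the cytokine interleukin 1 beta, stood at 283 and 100.1 CPM (ratio 0.353, 0.313 to 0.398), beside the lower neutrophil markers given above, and in innate lymphoid-like cells at 429.6 and 88.9 CPM (ratio 0.207, 0.17 to 0.25), where neutrophil markers summed to 759 and 389 CPM. Plau was higher in B cell-like cells, at 4.31 and 11.01 CPM, while Fn1, Adam15, Adamts9 and Col4a2 had ratios of 0.253, 0.234, 0.334 and 0.432 there. In innate lymphoid-like cells Fosb, Csf2, Plaur, Col4a1 and Adamts9 had ratios of 0.461, 0.616, 0.51, 0.34 and 0.39. In NK cell-like cells Thbs1 had 2 and 26 UMIs (ratio 10.3, 2.58 to 89.5), and the ratios of Lcn2 and Fn1 were 0.186 and 0.317. In neutrophil-like cells the matrix genes Col1a1, Fn1, Lamc1 and Fbn1 had ratios of 0.144, 0.482, 0.458 and 0.397, and Adamts1 0.397, beside fibroblast markers at 43.7 and 19.96 CPM.

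In interstitial macrophage-like cells Elane had 31 UMIs for IgG and 0 for S100A4-11, and Dcn and Serpine2 had ratios of 0.396 and 0.427. In alveolar macrophage-like cells Col4a2, Col4a1, Adamts2 and Ets1 had ratios of 0.481, 0.534, 0.622 and 0.628. In classical monocyte-like cells Lamc1 and Plat were at 0.478 and 0.435, and in immature granulocyte-like cells Fn1 was at 0.49. In type 2 alveolar epithelial-like cells Eln, elastin, was at 0.299, Adam8 at 0.371 and Il1a, with 32 and 2 UMIs, at 0.159, 0.0184 to 0.622. Over all cells Adam28 was at 0.368 and Elane at 0.441. The part of stray RNA or of the cell mix in these values was not tested.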

How the data were processed

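Counts were analysed of 1 single-cell RNA-seq library of lung per group. The authors deposited UMI counts per gene and barcode, made with Cell Ranger 7.1.0 on mm10 from a 10x 5′ V2 kit with DNBseq sequencing, per the submitters' processing notes and the labels' protocols. Deposited barcodes numbered 14411 for IgG and 12506 for S100A4-11, with 85458143 and 64695542 UMIs. Kept cells had at least 200 genes and at most 15% mitochondrial UMIs and were not called doublets by Scrublet in scanpy 1.11.5. That left out 67 and 101 barcodes for genes, 66 and 46 for mitochondrial share and 807 and 645 (5.65% and 5.22%) as doublets. Log-normalised counts of 2000 variable genes gave 30 principal components, 15 neighbours and Leiden clusters (resolution 1, best of 10 starts, leidenalg 0.10.2). Clusters took their class from markers of 25 classes, with 3 markers found in 25% of cells at 2 times the level of other cells. A cluster was left unnamed where markers of another lineage stood at a median of 50% of their highest rate. That last step read only classes that were some cluster's first choice, and markers found in 25% of cells of some cluster, a limit added after the clusters were seen.

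From the deposited counts, CPM per class was computed with exact Poisson intervals, and ratios with exact conditional binomial intervals (scipy 1.17.1), at 95%. No test was made, since each group is 1 library, and all intervals and floors (3 counts for a count of 0) cover counting error only. Cells were thinned to 500 UMIs for the thinned shares, and the shallowest barcode held 500. The ratio script was tested on simulated data. Genes named were the 10 members, the 3 genes most like each, and, from lists of related genes, up to 6 past the fold per class that had a called member. 1 of these listed genes is not reported here. The members and lists were chosen with earlier results of these data known, so a pattern already seen in them, such as that of Mmp19 in classical monocyte-like cells, is no independent support. Alternatives changed cell filters, clustering, scaling (TMM from edgeR 4.0.16), cell weights and thresholds.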

Additional observations from a re-analysis of the deposited data

How the results depend on the processing

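For 11 ratios in a gene's top or a main source class, 15 of 147 values under 15 alternatives moved by more than the counting interval. Clustering each library alone gave ratios in fibroblast-like cells of 0.73 for Mmp2, 0.439 for Mmp3, 0.807 for Mmp14, 0.638 for Timp1 and 0.764 for Timp2, and 1.33 for Timp3 in pericyte-like cells. Those of Mmp2 and Mmp14 thereby crossed 1. With every cell weighing the same, Mmp2 was 0.933 and Timp2 0.859 in fibroblast-like cells, and Mmp12 0.863 in interstitial macrophage-like cells. Without the 5 cells with most UMIs, Mmp3 was 0.575 in fibroblast-like and Mmp12 0.642 in interstitial macrophage-like cells. Mmp12 in the latter was 0.947 with at least 500 genes per cell and 0.97 at Leiden resolution 2. Mmp19 in classical monocyte-like cells was 0.505 at Leiden resolution 0.5, and Timp3 in pericyte-like cells 1.29 with every barcode kept.

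A reversal means that the ratio crossed 1, whatever its interval. It was read only for a ratio past the fold, and 16 of those 17 ratios lay under 20% of the gene's top level. The reversals found were at low levels. In B cell-like cells Mmp9 was 1.31 with doublets kept and 1.32 with every barcode. In classical monocyte-like cells Mmp9 was 0.845 with every barcode, 0.895 at resolution 0.5, 0.846 at resolution 2 and 0.746 with libraries clustered alone. Mmp12 there was 0.689 with every barcode, 0.702 with at least 500 genes, 0.691 at resolution 0.5 and 0.74 at resolution 2. Timp2 there was 0.97, 0.978 and 0.766 under the first 3 of those settings, and Mmp14 1.31 with libraries clustered alone. Most of these intervals included 1. Those that excluded it were Mmp12 with every barcode (0.574 to 0.826) and at resolution 0.5 (0.626 to 0.762), and Timp2 at resolution 0.5 (0.694 to 0.846). Other low-level calls held in every alternative with a value. Mmp19 held in all 15 in neutrophil-like cells and all 9 in immature granulocyte-like cells. Timp3 held in all 14 in neutrophil-like, all 13 in B cell-like and in NK cell-like, and all 10 in interstitial macrophage-like cells. Timp3 in innate lymphoid-like cells held in 11 of 12 and Mmp8 in interstitial macrophage-like cells in 10 of 11. Mmp9 in alveolar macrophage-like cells held in 9 of 13 and Timp2 in B cell-like cells in 7 of 13. The number of pairs higher past the fold, 4, became 0 with every barcode, 1 at resolution 0.5, 1 at resolution 2, 1 with libraries clustered alone, and 2 with at least 500 genes per cell, without the 5 top cells, at a minimum of 100 UMIs or at a fold of 2. The number lower, 13, became 4 at a minimum of 100 UMIs, where fewer pairs are read. The cause of the other changes was not tested. The starts of the clustering and the subtraction of the B cell-like level were alternatives chosen after seeing the data. With 1 Leiden start the 16 calls that had a value were kept, and 8 of 9 were kept after the subtraction. No paired analysis was possible because each group is 1 library.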
